A study of Mus musculus with 8 samples.

Results

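Myo10, Zfp106, Gm47283 and Afdn were 4 of the 13194 mouse genes with a CAGE cluster on their own strand, and they were selected on the cluster calls themselves, as genes with more clusters inside the gene body in both Pwwp2a/b DKO clones than in wild-type cells. CAGE-seq reads the capped 5′ ends of RNA, so a cluster marks a stretch of the genome where transcripts start, and its dominant TSS is the base with the most starts. Nuclear RNA was profiled in E14 mouse embryonic stem cells (mESCs), which are wild type, and in A1 and C7, both derived from E14 and lacking Pwwp2a and Pwwp2b. Each DKO line is a single clone. The 8 libraries (3 of E14, 2 of A1 and 3 of C7) had been merged by line before the clusters were called, so each line gave 1 set of clusters and none of the differences below has a replicate check or a test. The file of clusters holds positions and no signal, so a cluster absent from a line was below the authors' calling limit there and may still have had reads.

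PWWP2A and its paralog PWWP2B carry a PWWP domain, a fold that recognises methylated histone tails, and they bind a complex with the histone deacetylases HDAC1 and HDAC2. Methylation of histone H3 at lysine 36 covers the bodies of transcribed genes, where starts away from the promoter are normally kept low. The question put to the clones was whether losing both proteins permits transcription to start inside genes. Myo10 encodes an unconventional myosin that moves along actin to the tips of filopodia, and a shorter headless form lacking the motor domain is known. Zfp106 encodes a zinc finger protein that binds RNA and is needed by motor neurons and muscle. Afdn encodes afadin, which links nectins at adherens junctions to actin. Gm47283 is a predicted protein-coding gene on the Y chromosome, with no role given here.

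A gene's window ran from 500 bp before its annotated start to its end. Clusters of different lines that shared at least 1 bp on the same strand were counted as 1 locus. A locus within 500 bp of any annotated transcript start on its strand was called a promoter locus, and the others were called exonic or intronic. By this rule some promoter loci of each of the 4 genes lay in coding exons, near starts of other transcripts. The 4 genes held 129 loci, of which 121 were called in all 3 lines. Only 8 were called in some lines and not in others, and these 8 were exactly the loci 1 bp wide. A1 and C7 shared 5 of them, A1 alone had 2 and C7 alone had 1, while E14 had no cluster at these genes that the clones lacked.

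The 5 loci of both clones lay in 3 of the 4 genes, with 2 in Myo10, 2 in Zfp106, 1 in Afdn and 0 in Gm47283. The 4 of them that lie in exons are given with the sequence around the dominant TSS, since they are the sites by which the clones differ from E14. Each line gives 30 bases, 5′ to 3′ on the gene's strand, from GENCODE M21 transcripts on mm10, and the capitals mark the dominant TSS and the base before it.
Myo10 exon 41, chr15:25812768-25812797, plus strand: ttaacgtttttgggGTttttttgttttttt
Zfp106 exon 5, chr2:120535287-120535316, minus strand: ttggcattctgaagGAacaggtggctttcc
Zfp106 exon 5, chr2:120534494-120534523, minus strand: tcaaaaaataaggaGAcaaagtcctttcct
Afdn exon 2, chr17:13803939-13803968, plus strand: GAtttggagtttcatggagtcatgagattt
In all 4 of these exonic loci, the base before the dominant TSS was G. The fifth locus lies in an intron of Myo10 and its bases were not read here.

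That G is not a feature of these sites alone. Over the exonic clusters whose bases could be read, G stood before the dominant TSS in 72.1% of 4245 clusters in E14, 70.9% of 4294 in A1 and 71.5% of 4305 in C7. Among exonic clusters 1 bp wide it stood there in 97.1% of 34 in E14, 96.9% of 97 in A1 and 97.1% of 103 in C7. Of the 40 exonic clusters that A1 shared with C7 and not with E14 over all genes, 90% had it. Promoters read differently. At E14 clusters within RefSeq promoters, a pyrimidine followed by a purine, the step known as the initiator, occupied these positions in 82.3% of 4526 clusters on the plus strand and 81.9% of 4428 on the minus strand, and G came before the TSS in 7.31 and 7.77%. The same initiator step was found in 10.5% of the exonic clusters of E14. The gained exonic sites at Myo10, Zfp106 and Afdn therefore carried the base that most exonic clusters of each line carried, in wild-type cells too.

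The main promoters of the 3 genes are shown for comparison, from RefSeq promoter sequences on GRCm38.p6, the assembly behind mm10. By symbol, 3 of the 4 genes matched that table and Gm47283 did not. Capitals again mark the E14 dominant TSS and the base before it.
Myo10 gene start, chr15:25622519-25622548, plus strand: gggattgagggcggGGcggaccgagcacaa
Myo10 internal promoter, chr15:25753156-25753185, plus strand: cactggccaagacaCAgcataaaaggcagg
Myo10 internal promoter, chr15:25753190-25753219, plus strand: gagcccggcaagctTTagagcacaggggtt
Zfp106 gene start, chr2:120563814-120563843, minus strand: ttgcgcgatggtggTAgtagcggcggcggc
Afdn gene start, chr17:13760517-13760546, plus strand: ggcggcgctcggcgCAccggccgcggctga
The starts of Zfp106 and Afdn and the first cluster printed for the internal promoter of Myo10 had the initiator step. The second cluster printed there had TT and the start of full-length Myo10 had GG. At each of the clusters printed here the dominant TSS was the same base in E14, A1 and C7. Other clusters of these promoters differed. At chr15:25752887-25752894 in Myo10, 16 bp from a transcript start, it was 25752894 in E14 and A1 and 25752887 in C7. At chr2:120563748-120563759 in Zfp106 it was 120563751 in E14 and A1 and 120563759 in C7.

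**Figure D1:**
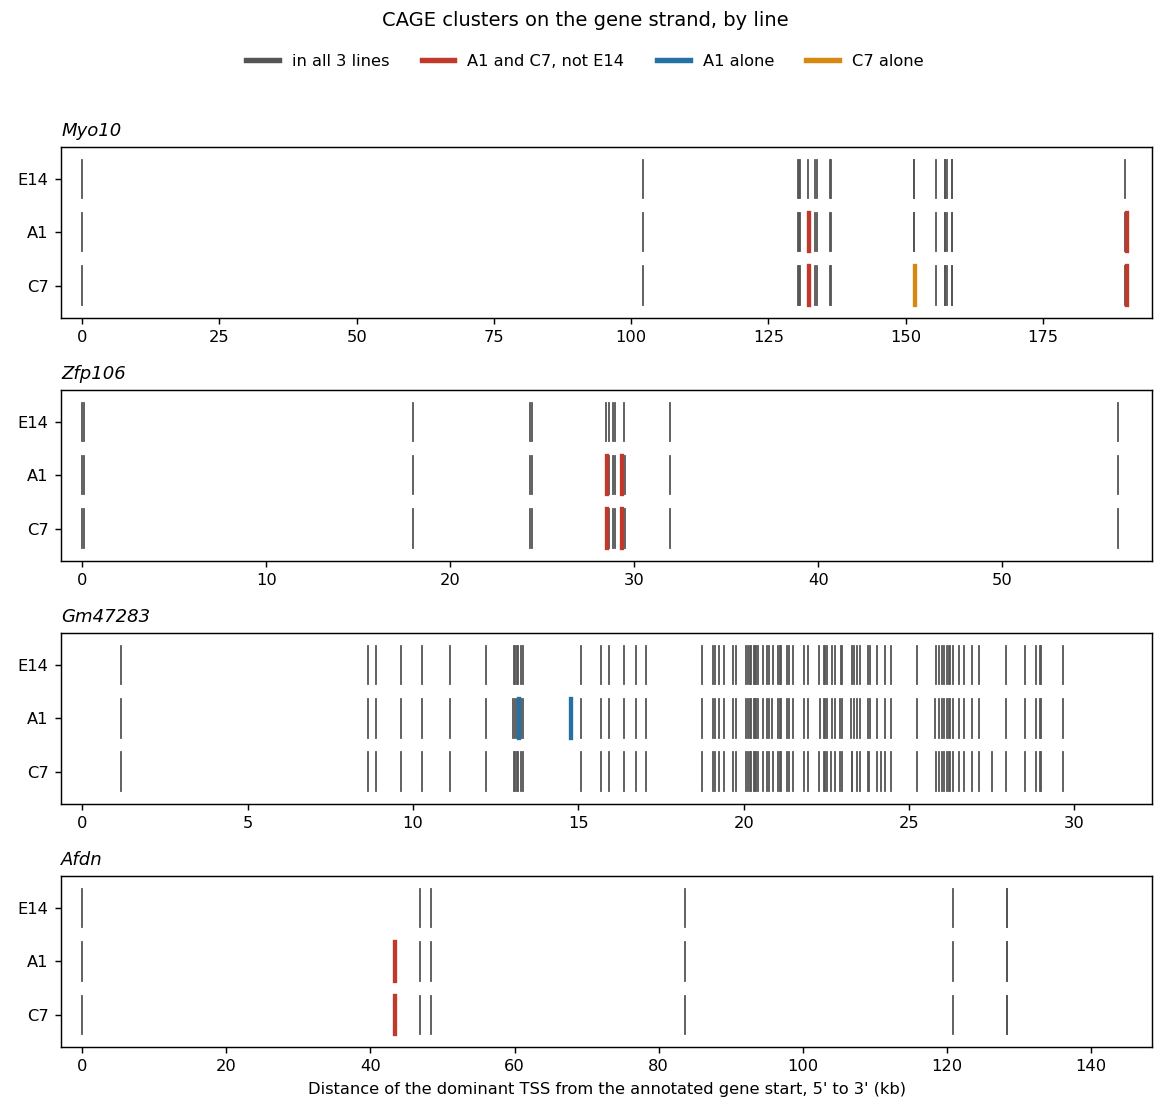
Clusters of E14, A1 and C7 on the strand of each gene, placed by the distance of the dominant TSS from the annotated gene start in kb. Red marks the 5 loci of A1 and C7 that E14 lacks (2 in Myo10, 2 in Zfp106, 1 in Afdn), blue the 2 of A1 alone in Gm47283, amber the 1 of C7 alone in Myo10, and grey the 121 loci of all 3 lines.

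Myo10 (ENSMUSG00000022272.17) spans chr15:25622525-25813673 on the plus strand, a length of 191 kb with 13 annotated transcripts. Its window held 20 clusters in E14, 22 in A1 and 23 in C7. E14 had 8 exonic or intronic clusters and each clone had 10, whereas promoter clusters numbered 12 in E14 and A1 and 13 in C7. Exon numbers are those of the coding transcript with the longest coding sequence, which in Myo10 has 41 exons. Most loci were far from its start. Intron 19 alone held 13 of the 23 loci, in a stretch where several shorter coding transcripts start, among them transcripts annotated from position 25752910, 25758765 and 25773987.

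The first Myo10 locus of both clones was the single base chr15:25754895, in intron 19 and 132 kb from the gene start. It lay 1916 bp from the nearest annotated transcript start. A cluster called in all 3 lines ended 61 bp before it, with its dominant TSS in E14 62 bp upstream. The next E14 dominant TSS downstream was 1120 bp away. The second was chr15:25812783, in the 3′ UTR within exon 41, the last exon, and 190 kb from the gene start. Here too a cluster of all 3 lines was nearby, 2 bp wide with its dominant TSS 207 bp upstream, and E14 had no cluster downstream of it in the gene. C7 alone had one more single base, chr15:25774195, which lay 208 bp from an annotated transcript start and 83 bp downstream of an E14 dominant TSS, and which counts as a promoter locus. No Myo10 locus was present in E14 and missing from a clone.

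The other 20 Myo10 loci were 2 to 86 bp wide, and 19 had the same first and last base in every line. The exception, chr15:25774001-25774031, kept its dominant TSS at 25774013 in the 3 lines. The positions do not show whether bounds were set separately in each line, so equal bounds are not read as agreement between lines. The dominant TSS was the same base in all 3 lines at 11 of the 20. It differed from E14 in A1 alone at 3, in C7 alone at 4, in both clones at the same new base at 1, and fell on 3 different bases at 1. The locus with the same new base was chr15:25779725-25779726, in the coding part of exon 23, where E14 used the first of the 2 bases and both clones the second. The locus with 3 different bases was chr15:25778125-25778147, in the coding part of exon 22, where E14 had its dominant TSS at 25778134, A1 at 25778125 and C7 at 25778133. The interquantile width, which spans the starts between the 0.1 and 0.9 quantiles of a cluster's signal, had a median of 13.5 bp in E14, 10.5 bp in A1 and 13.5 bp in C7 over these 20 loci. It was wider than in E14 at 4 loci in A1 and 5 in C7, narrower at 2 and 1, and equal at 14 in each clone. Gm48996 and Gm2862 overlap Myo10 on the same strand, and none of the sites given here lies within them.

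Zfp106 (ENSMUSG00000027288.16) spans chr2:120506820-120563843 on the minus strand, a length of 57 kb with 11 annotated transcripts. E14 had 12 clusters in its window and A1 and C7 had 14 each. Promoter loci numbered 5 in every line, so the difference was in exons, with 7 exonic clusters in E14 and 9 in each clone. The promoter loci included some in coding exons 4 and 6, at 371, 476 and 180 bp from a transcript start. No cluster of Zfp106 was intronic in any line.

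Both Zfp106 loci of the clones lay in exon 5 of 22, a coding exon of 2169 bp (chr2:120533511-120535679) and the second longest of the transcript. They were the single bases chr2:120535301 and chr2:120534508, at 28.5 and 29.3 kb from the gene start and 3243 and 2450 bp from the nearest annotated transcript start. Exon 5 held 7 loci in A1 and C7, and 5 of these were called in E14 as well. The first site lay between clusters of all 3 lines, with E14 dominant TSSs 77 bp upstream and 98 bp downstream. The second lay 398 bp downstream of an E14 dominant TSS and 120 bp upstream of the next. In both clones the dominant TSS of that next cluster, chr2:120534369-120534388, was at 120534369, whereas in E14 it was at 120534388, at the other end of the same 20 bp. The lincRNA Gm26899 covers this exon on the opposite strand. Antisense clusters in the Zfp106 window numbered 3 in each line.

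The 12 Zfp106 loci of all 3 lines had identical first and last bases in each. Their dominant TSS was the same in all 3 lines at 8, differed from E14 in A1 alone at 2, in C7 alone at 1, and in both clones at 1, the locus just described. Their median interquantile width was 3 bp in each line. The cluster at chr2:120535202-120535204, present in every line, is shown because it is the E14 cluster closest to the first gained site on its downstream side, with the dominant TSS and the base before it in capitals.
Zfp106 exon 5, chr2:120535189-120535218, minus strand: acaatggccctggaGAcaaatttcaacaag
Its dominant TSS and the base before it read GA, as at both gained sites of the exon. The E14 cluster on the upstream side of the first gained site, chr2:120535376-120535378, was nearer. There the same 2 positions read AG in E14 and C7 and GC in A1.

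**Figure D2:**
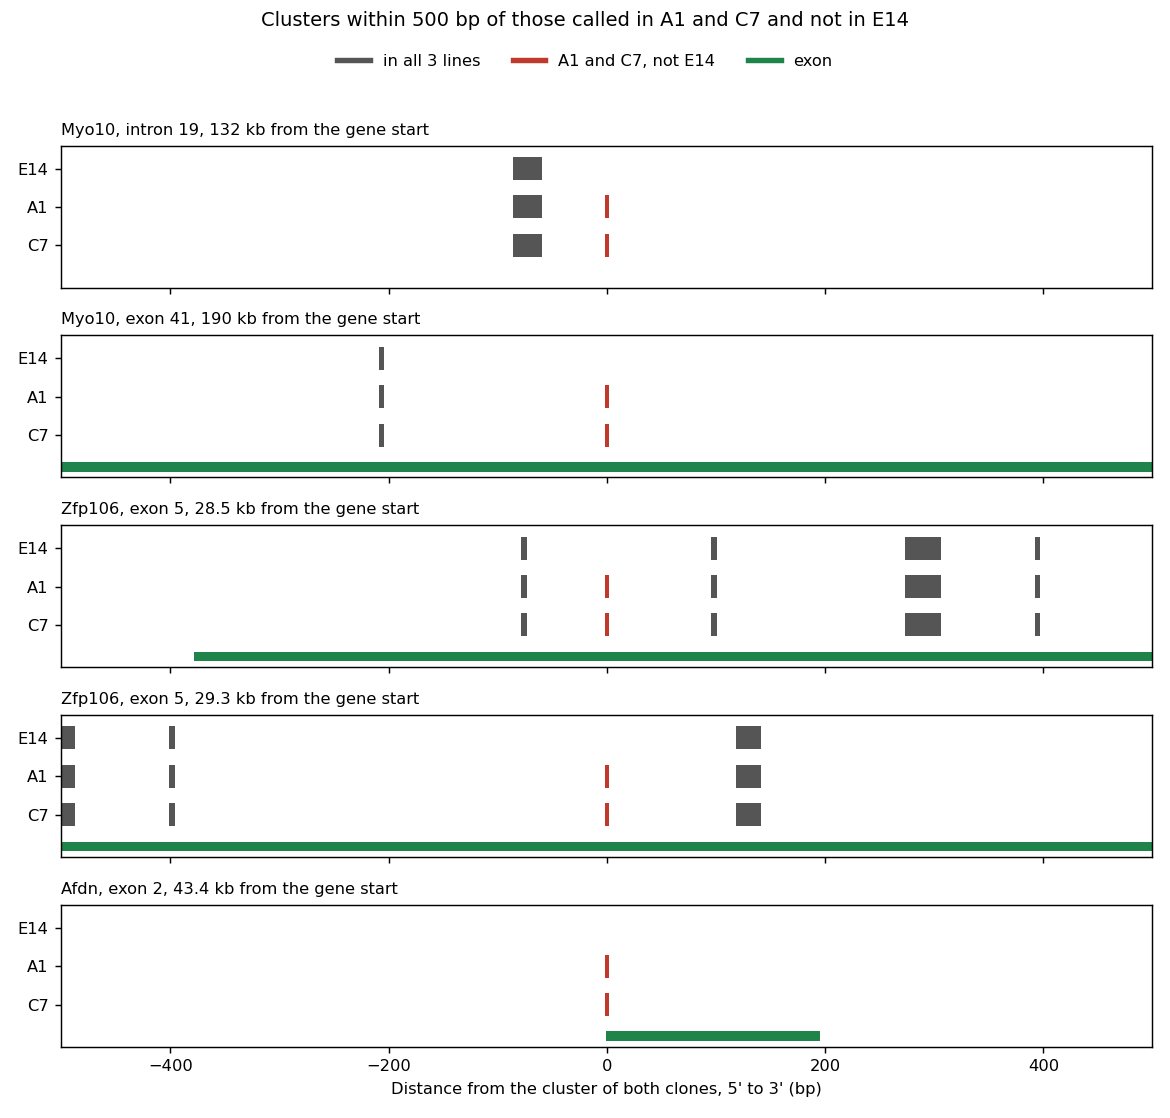
Clusters of each line within 500 bp of the 5 loci called in A1 and C7 and not in E14, placed by distance from that locus in bp, with the exon that holds it as a green bar. Each cluster is drawn 3 bp wider than it is so that single bases can be seen, and in 4 of the 5 panels a grey cluster of all 3 lines lies within 500 bp, whereas the Afdn panel has none.

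Afdn (ENSMUSG00000068036.15) spans chr17:13760539-13906150 on the plus strand, a length of 146 kb with 16 annotated transcripts. It had 7 clusters in E14 and 8 in each of A1 and C7, of which 4, 5 and 5 were exonic or intronic. Promoter loci numbered 3 in every line, and they included loci in coding exon 30, at 2 and 28 bp from the start of a shorter transcript. The single locus of the clones was the base chr17:13803940, in exon 2 of 34, at 43.4 kb from the gene start. Exon 2 begins at 13803939, so the site was the second base of a coding exon of 196 bp, directly after a splice junction. It stood apart from the other starts of the gene, with the E14 dominant TSS of the main promoter 43408 bp upstream and the next E14 dominant TSS 3409 bp downstream, in exon 3.

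A dominant TSS on the second base of an exon also occurred in Myo10, where it was used in every line. That site, chr15:25780975 in exon 25, belonged to a cluster 7 bp wide that began before the exon. Its exon start is shown beside the Afdn exon given above, with the same capitals.
Myo10 exon 25, chr15:25780974-25781003, plus strand: GAggcagagacaaggaggcagcaagaactg
Both exons began with GA. Over all genes, the dominant TSS fell within the first 5 bases of an exon other than a transcript's first in 4.6% of the 4260 exonic clusters of E14, 4.64% of 4311 in A1 and 4.7% of 4321 in C7. Of the 40 exonic clusters of both clones and not E14, 2 did so, which is 5%.

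The 7 Afdn loci of all 3 lines had identical bounds, and the dominant TSS was the same base at 6 of them. The other was chr17:13808935-13808973, in the coding part of exon 4, where the dominant TSS was 13808936 in E14 and 13808973 in both clones, 37 bp further downstream. Their median interquantile width was 3 bp in E14 and C7 and 4 bp in A1. The main promoter cluster, chr17:13760502-13760634, was the widest at 133 bp, with its dominant TSS at 13760532 in every line. The antisense strand of the Afdn window had 1 cluster in each line.

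Gm47283 (ENSMUSG00000096768.7) spans chrY:90784738-90816464 on the plus strand, a length of 31.7 kb with 4 annotated transcripts. Its window held 82 clusters in E14 and 84 in each clone, of which 81, 83 and 83 were exonic or intronic. The equal gain of 2 in A1 and C7 came from different places, and Gm47283 had no cluster that both clones shared and E14 lacked. The description under which the 4 genes were grouped thus holds for Gm47283 as a difference in number only. In A1 the 2 extra clusters were the single bases chrY:90797952 and chrY:90799525, both in intron 3, at 13.2 and 14.8 kb from the gene start, and neither was called in C7. In C7 the 2 extra clusters arose because a pair of clusters that E14 and A1 each had whole were divided.

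The first divided cluster, chrY:90808739-90808929, was 191 bp wide in E14 and A1 with its dominant TSS at 90808770. In C7 it was called as 90808739-90808822 and 90808844-90808929, with 21 bases between them and dominant TSSs at 90808770 and 90808891. The second, chrY:90812234-90812788, was 555 bp wide in E14 and A1 with its dominant TSS at 90812670. In C7 it was called as 90812234-90812307 and 90812336-90812788, with 28 bases between them and dominant TSSs at 90812252 and 90812670. The outer bounds were the same in all 3 lines. Over the whole series, a locus of all 3 lines was divided in C7 alone in 8 cases, in A1 alone in 21 and in E14 alone in 4.

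**Figure D3:**
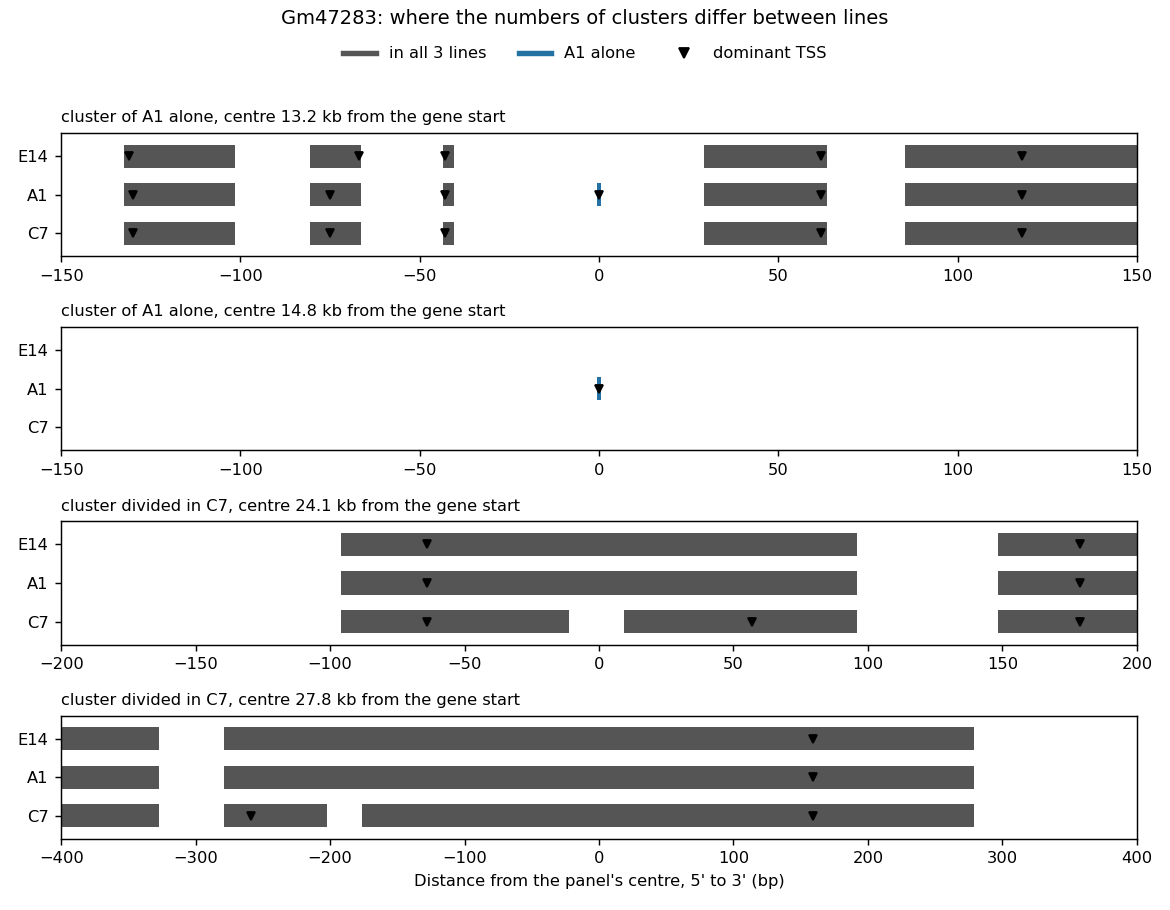
The 4 places in Gm47283 where the number of clusters differs, by distance from the centre of each panel in bp, with triangles on the dominant TSSs. The upper panels hold the 2 single bases called in A1 alone, and in the lower panels the clusters of 191 and 555 bp in E14 and A1 are each called as a pair in C7.

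Gm47283 had the most clusters of the 4 genes in each line. Of its 84 loci, 82 lay in intron 3 of the transcript with the longest coding sequence, and its clusters between 20 and 30 kb from the gene start numbered 56 in E14, 56 in A1 and 58 in C7. Loci of all 3 lines there reached 555 and 501 bp in width. Of the 80 loci with 1 cluster in each line, 78 had identical bounds and 48 the same dominant TSS in all 3 lines. The dominant TSS differed from E14 in both clones at the same new base at 10 loci, in A1 alone at 12 and in C7 alone at 8. The antisense strand held 16 clusters in each line. The dominant TSS and its surroundings could be read at 3 loci within exons, the first of them a promoter locus, shown here at the base used in A1 because they resemble one another.
Gm47283 exon 2, chrY:90785899-90785928, plus strand: gttcacccgccgcgGTcaagatgtatgtgc
Gm47283 exon 3, chrY:90793353-90793382, plus strand: gaagcggacgccgtGGtcaagatgtctctg
Gm47283 exon of another transcript, chrY:90793599-90793628, plus strand: tgttcacccgccgtGGtcaagatgtatgtg
All 3 shared the run ggtcaagatgt, of 11 bases, at the dominant TSS, and each had G before it. The authors kept reads with a single place in the genome, so what this repeated sequence lost in mapping is not known from the clusters.

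The 3 genes with a cluster of both clones and not E14 were read against all genes. Such a cluster was found in 93 of 13194 genes, which is 0.705%, and since the members were chosen for this difference, their share is not a result. This count includes promoter clusters. With exonic or intronic clusters alone, 51 genes had 1 such cluster and 2 genes had 2. In the other direction, a cluster of E14 that both clones lacked was found in 50 genes, which is 0.379%, and in none of the 4. Choosing the members on their net gain favours that absence, so it is not a result either. The 4 members had 7 to 82 clusters in E14, where the median over all genes was 1. Among the 582 genes with at least 7 clusters in E14, a minimum set after the members' values were known, 29 had a cluster of both clones and not E14, which is 4.98%. Of all 33324 loci, 148 were of both clones and not E14, which is 0.444%. Over all loci, promoter and intergenic ones included, the other pairs of lines shared more. They had 170 loci of E14 and A1 only (0.51%) and 157 of E14 and C7 only (0.471%). Exonic loci numbered 40 for A1 and C7 only, 18 for E14 and A1 only and 24 for E14 and C7 only. Intronic loci numbered 13, 29 and 15 in the same order. Myo10 and Zfp106 were, with Srrm2, the only genes with 2 clusters of both clones and not E14. Both of these clusters of Srrm2 were promoter loci. Likeness to the members was taken as the number of clusters of both clones and not E14 in the gene's window, with ties by name. Srrm2, a splicing factor gene, had 47 clusters in E14 and 50 in each clone. Of the 90 genes with 1 such cluster, the first by name were 3010003L21Rik, with 0 clusters in E14 and 1 in each clone, 6030442K20Rik, with 3 and 4, and Acss1, an acetyl-CoA synthetase gene, with 2 and 3. The cluster gained in 3010003L21Rik and that in Acss1 were promoter clusters wider than 1 bp, unlike those of the members. The one in 6030442K20Rik was exonic or intronic and 1 bp wide.

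**Figure D4:**
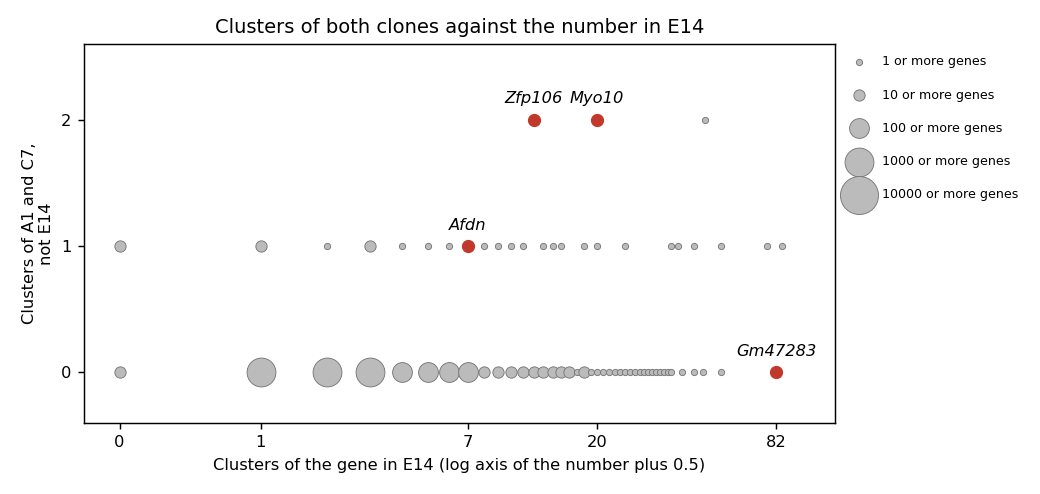
Number of clusters of A1 and C7 that E14 lacks, against the number of clusters in E14, for the 13194 genes, with larger circles for more genes and the 4 members in red. Myo10 and Zfp106 share the value of 2 with 1 other gene, Afdn sits at 1, and Gm47283 sits at 0 with 82 clusters in E14.

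The genes had been ranked by the smaller of the gains of exonic and intronic clusters in the clones. It was at least 1 in 51 genes, which is 0.387%. Just inside, Gm47283, Myo10 and Zfp106 had a gain of 2 in each clone and no other gene did. Afdn had a gain of 1 in each clone, a value that 48 genes had, so it stands among equals. With the same gain of 1 were 6030442K20Rik (1 exonic or intronic cluster in E14 and 2 in each clone), Akap2 (4 and 5), Amer1 (1 and 2), Apoe (7 and 8) and Asxl1 (1 and 2), the first by name beside Afdn and Ankrd11. Ankrd11 had 40 in E14, and the clones had 42 (A1) and 41 (C7). In the opposite direction, 17 genes had fewer exonic or intronic clusters in both clones than in E14, each with 1 fewer in the clone that differed less.

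All 5 loci of both clones at Myo10, Zfp106 and Afdn were 1 bp wide, a width that was rare in the series as a whole. Loci of a single base numbered 726, and 164 of them, or 22.6%, were called in all 3 lines. Of the 32598 wider loci, 32285 were called in all 3. Among the 148 loci of both clones and not E14, 86 were a single base, which is 58.1%. In the other pairs of lines a single base made up 60 of the 170 loci of E14 and A1 only (35.3%) and 34 of the 157 of E14 and C7 only (21.7%). It made up 92.1% of the 76 loci of E14 only, 95.4% of the 217 of A1 only and 98.1% of the 107 of C7 only. The clusters of 1 bp numbered 329 in E14, 520 in A1 and 389 in C7 over all clusters of each line, intergenic ones included. Within the windows of the 4 members, A1 had 7 of these clusters, C7 had 6 and E14 had 0. The members were chosen for having more clusters in both clones, which favours this difference, so it is not read as a result. Whether the lines differed in depth cannot be read from the clusters. The paper lists the mapped reads of each sample, and they were not used here. The part of depth or of the calling limit in these single bases was not tested.

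**Figure D5:**
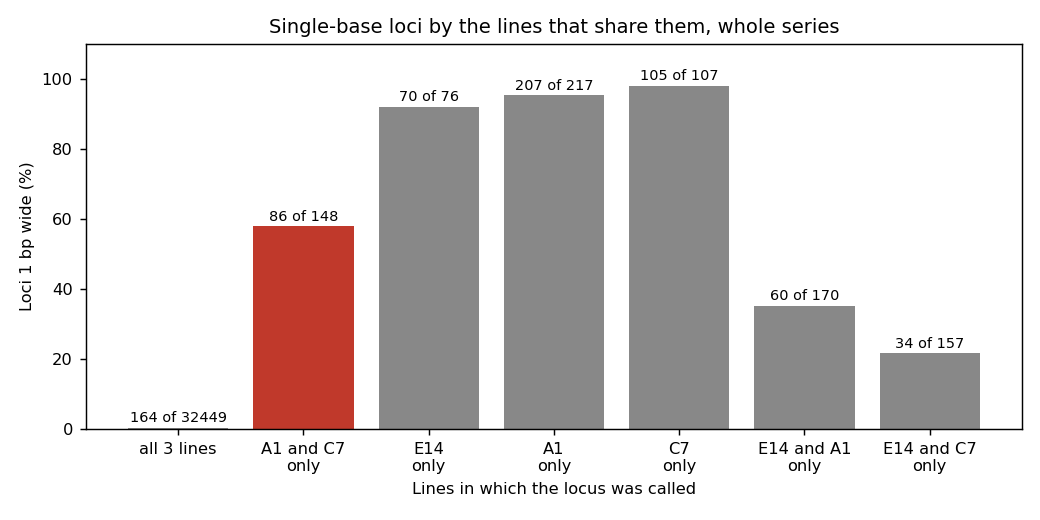
Share of loci 1 bp wide, in percent, by the lines in which they were called, with the number of single-base loci and of all loci above each bar. The share is 58.1% among loci of A1 and C7 only (red), 35.3 and 21.7% among loci of E14 and 1 clone, between 92.1 and 98.1% among loci of 1 line, and 0.505% among loci of all 3.

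The gained sites at Myo10 and Zfp106 lay beside clusters that E14 had. Over all genes, the 53 exonic or intronic clusters of both clones and not E14 had a median distance of 310 bp to the nearest E14 dominant TSS on their strand, and 27 of them, or 50.9%, were within 500 bp. The 42 of them that were a single base, as the sites at the members were, had a median of 210 bp. Of these, 24, or 57.1%, were within 500 bp. Exonic or intronic clusters of E14 had a median of 1013 bp to the next E14 dominant TSS, and 43% of the 7305 were within 500 bp. These sets were not matched for the number of clusters in the gene. Clusters of both clones and not E14 occurred in 4.98% of genes with at least 7 clusters in E14, against 0.705% of all genes. The part of cluster density in the distances was not tested. Of the 5 sites at the members, 4 were within 500 bp and the Afdn site was not.

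Changes of the dominant TSS at the 4 genes were set beside those of all loci with 1 cluster in each line, 32415 in number. Over all of these the dominant TSS was the same base in all 3 lines at 66.3%, moved in both clones to the same new base at 8.47%, moved in A1 alone at 12.6% and moved in C7 alone at 9.95%. First and last bases were identical at 98.6%. Whether bounds were set separately in each line is not known, so this share and the equal bounds at the members are not read as agreement. At Zfp106 8 of 12 loci and at Afdn 6 of 7 had the same dominant TSS in all 3 lines, and at Myo10 11 of 20 and at Gm47283 48 of 80 did. These counts are descriptions, since the loci of a gene share its reads.

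Genes of related function were listed as background. Of 39 genes named as myosin heavy chains, 18 had a cluster, and the 17 other than Myo10 had the same number in E14, A1 and C7. Myh9, a nonmuscle myosin of contractile fibres, had 4 clusters in each line. Of 17 genes whose products work with afadin at adherens junctions, 16 had a cluster, and all 16 had the same number in the 3 lines. They included Ctnna1, which encodes the alpha-catenin that ties cadherins to actin, with 2 clusters, and Nectin3, an adhesion molecule bound by afadin, with 1. At the share of 0.705% found over all genes, lists of this size would mostly hold no gene with a cluster of both clones and not E14, and nothing is read from its absence here. The median number of clusters in E14 was 2.5 for the myosins and 1.5 for the junction genes. Pwwp2a, 1 of the 2 targeted genes, had 2 clusters in all 3 lines, at its promoter and in an intron, and Pwwp2b had no cluster in any line. Clusters mark where RNA starts and do not check the deletions.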

How the data were processed

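CAGE-seq libraries of nuclear RNA (nAnT-iCAGE) from 8 samples in 3 lines were used as tag clusters. The authors mapped reads to mm10 with STAR 2.4.2a, kept unique alignments, merged the libraries of each line, normalized them by a power law and called clusters with CAGEr. The deposited score is 0 in every row, so only the deposited positions, which carry no unit of signal, were used. The minimum signal, and the setting for clusters of 1 base, are not given in the sources used here, and no depth is held in the file.

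Positions were compared with GENCODE M21 in Python 3.11.15, with a promoter window of 500 bp and an overlap of at least 1 bp. The functions were tested on simulated clusters. No p-value was calculated. The 4 members, the gene lists and the comparisons were chosen with earlier results of these data known. Named genes were the members, those with the next smaller gain by name, those with the most clusters of both clones, members of the 2 lists, and Pwwp2a and Pwwp2b.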

Additional observations from a re-analysis of the deposited data

How the results depend on the processing

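When clusters whose interquantile region was under 3 bp were left out of every line, the number of clusters of both clones and not E14 was 0 at Myo10, 0 at Zfp106 and 0 at Afdn, since every such cluster there is 1 bp wide. At Gm47283 it was 3, at loci that E14 also had but whose interquantile width there was 1 or 2 bp. The counts at the 4 genes were the same as reported when clusters were matched within 20 bp, by a reciprocal overlap of 50% or by their interquantile regions, with no upstream bases, on either strand, with promoter windows of 100 and 1000 bp, and with protein-coding transcripts only. The share of genes with such a cluster was 0.705% within 20 bp and 0.811% by reciprocal overlap. It was not calculated with the filter of 3 bp, so the members' counts under that filter cannot be set against all genes. No paired analysis was possible because the libraries of each line had been merged, and leaving out a replicate was not possible for the same reason.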
